A study of Mus musculus with 3 samples.

Results

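Convergent genes are neighbours that are transcribed towards each other, and where their last exons share a stretch of genome their mRNAs are complementary at the 3′ ends. The last exons of all multi-exon isoforms listed in 3 long-read libraries of mouse CD4+ T cells were pooled, and a pair was kept when a plus-strand and a minus-strand last exon overlapped by at least 1 nt and the plus-strand isoform started upstream of the minus-strand 3′ end. A terminal exon family holds the isoforms that share a last acceptor, the base at which the last intron ends, and overlaps were collapsed to distinct pairs of acceptors. This gave 91 pairs, out of 523 pairs of facing families whose last exons overlapped or lay within 5000 nt of each other. The pairs drew on 171 of the 8719 families and on 690 isoforms, and formed 77 pairs of annotated genes. The members were chosen by the measured overlap of these same exons, so overlap counts and lengths are given as a description.

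Full-length isoforms were listed for 1 PacBio library per state, namely naive CD4+ T cells, undivided cells (0 divisions at 48 h of activation) and 2-division cells (2 divisions at 48 h). All cells were from spleens and lymph nodes of wild-type male mice (C57BL/6N in the study's methods), and how many animals went into a library is not given in the sources used here. Naive cells were labelled with the division dye CellTrace Violet, stimulated in culture with antibodies to CD3 and CD28, and sorted on the dye peaks; the naive library was made from labelled cells without stimulation. With 1 library per condition no test was made, every difference is between libraries, and since the labels give the naive library a sequencing cell apart from that of the activated libraries, activation and sequencing cell cannot be told apart.

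The lists give exon positions and no read numbers, so they say whether an isoform was found and not how abundant it was. Depth is only known as 10527, 12602 and 11109 isoforms in the naive, undivided and 2-division libraries, of which 9047, 11716 and 10253 had more than 1 exon. Of 9 CD4+ T cell markers, 9 were listed in the naive library and 7 in each activated one, where Cd3g and Trac had no isoform. Of 7 B cell markers, 6 were listed in the naive library and 2 in each activated one. Cd79a had no isoform in any library. In the naive, undivided and 2-division libraries, 1, 1 and 0 of 2 CD8 T cell markers and 1, 1 and 1 of 3 NK cell markers were listed. In the same order, 1, 0 and 0 of 5 myeloid markers and 1, 0 and 0 of 2 erythroid markers were listed. The part of other cells in the pairs was not tested. The last introns of 99.1% of 30783 multi-exon isoforms carried a GT-AG, GC-AG or AT-AC boundary on the strand given.

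A poly(A) signal, most often AATAAA or ATTAAA in the DNA, lies shortly before the point at which an mRNA is cut and given its tail, and a gene with several signals can end its mRNA at several places. A shorter end can leave out the stretch that a convergent neighbour shares, and a longer end can run over the neighbour's last exon or even past its last intron. Complementary mRNAs can in principle pair into double-stranded RNA if they meet in the same cell, which these lists do not measure.

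The shortest overlaps can be shown whole, and they show how tightly 2 facing ends can be packed. The stretches below are from the GRCm38 plus strand, 5′ to 3′. Capitals mark AATAAA or ATTAAA of the plus-strand gene and the reverse complement of either, which is the signal of the minus-strand gene. The first is chr10:127660919-127660945, shared by Stat6, the transcription factor of interleukin 4 signaling, and Nab2, a corepressor of EGR factors. The next is chr9:44410160-44410189, shared by the ribosomal protein gene Rps25 and Ccdc84. In both, the facing signals lie side by side, 1 base apart in the first and 2 bases apart in the next. The others are chr3:95006601-95006621 of Pi4kb, a lipid kinase of the Golgi, and Zfp687, chr11:115490444-115490468 of Armc7 and the nucleotidase gene Nt5c, and chr17:24596490-24596507 of the polycystin gene Pkd1 and Tsc2, an inhibitor of mTOR signaling. These hold 1 signal or none. The Zfp687 end had none of the 11 signals searched for, and the other missing signals lay outside the shared stretch. The Stat6, Zfp687 and Nt5c ends of these stretches are followed in the genome by an A-rich stretch, 12 A or more among the next 20 bases. Rps25/Ccdc84 and Pkd1/Tsc2 were chosen for printing after their values were seen.
Stat6/Nab2: cctaagccataaAATAAAtTTTATTcc
Rps25/Ccdc84: acatttggaaaAATAAAacTTTATTgaatc
Pi4kb/Zfp687: gaAATAAAatccttagttagc
Armc7/Nt5c: aaaaacctcctgattttctccactg
Pkd1/Tsc2: tgctgctctctgaactcc

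In Ilf2/Snapin, Prpf39/Fkbp3 and Usp16/Cct8 the overlap depended on which of several ends was listed, while that of Foxp3/Ccdc22 was kept by all listed ends and is shown for its T cell gene. For these pairs the windows of 30 bases at or shortly before the end are shown on the strand of each gene, with its signal in capitals. Ilf2, which encodes a subunit of a double-stranded RNA binding complex, ended distally at chr3:90488372 (+). Snapin, of vesicle transport, ended at chr3:90487962 (-) distally and about chr3:90488374 (-) proximally. Prpf39, a splicing factor of the U1 particle, ended about chr12:65062155 (+) or at chr12:65063385 (+). Its neighbour Fkbp3, a nuclear prolyl isomerase, ended at chr12:65062433 (-). Usp16, a deubiquitinase of histone H2A, ended at chr16:87483307 (+) or chr16:87483511 (+), and Cct8, a subunit of the cytosolic chaperonin, at chr16:87483877 (-) or chr16:87483327 (-). Foxp3, the transcription factor of regulatory T cells, ended at chrX:7593892 (+) and Ccdc22, of endosomal sorting, at chrX:7593809 (-). Each of these ends carried AATAAA in its last 50 nt.
Ilf2 distal: tgaaaccataataaAATAAAtttttttgtt
Snapin distal: attgaagaaaAATAAAaccaaaagccctag
Snapin proximal: ttattaAATAAAtgcttgtactggttattt
Prpf39 proximal: catttttgtAATAAAaatggagactcatgc
Prpf39 distal: tgtaatccttAATAAAtgcttactaacatt
Fkbp3: gactcAATAAAagtgtcatggattgtcttg
Usp16 proximal: ggctattataacAATAAAaagttaaactat
Usp16 distal: tgcttgacacatcAATAAActgatattccc
Cct8 proximal: tgctgggtggtacAATAAAtgtgttactgt
Cct8 distal: taAATAAAcatgattttttttctgtcattt
Foxp3: catccAATAAActgtggtcagctggacaat
Ccdc22: atcccaAATAAAagagaagttcttctgtgg

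Of the 91 pairs, 88 lay on the reference chromosomes and 3 on a patch sequence. A patch pair had acceptors at 4194981 and 4196081, and Ppp1ca/Rad9a on chromosome 19 has them at 4194982 and 4196082. The same locus may thus be counted again among the 91, which was not tested. On the reference chromosomes 87 pairs joined annotated genes, and in 85 of these both genes were protein coding. All last introns were GT-AG in 86 of the 88 pairs. The exceptions were an Arf1 isoform and the partner of the class I gene H2-D1, which has no annotation and a last intron with other bases. Annotated last exons of the same genes, not matched to the listed acceptors, already overlap in 83 of the 87 pairs. In 19 pairs the listed overlap was longer than this annotated overlap of the genes. Whether the annotated last exons of the listed acceptors overlap was not tested. In 9 gene pairs more than 1 pair of acceptors was listed, with the most, 3, in Narfl/Haghl.

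With the longest end of each family over all libraries, the overlap ranged from 3 to 995 nt with a median of 185 nt (95% interval of the median 125 to 222 nt, n = 91). It was at most 30 nt in 13 pairs and over 200 nt in 44. In 65 pairs both ends lay inside the partner's last exon. In 11 pairs the plus-strand end ran past the partner's last acceptor, in 12 the minus-strand end did, and in 3 both did.

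These classes differed in what the shared stretch held, in part by their definition. Annotated coding bases of at least 1 gene lay in the overlap of 31 of 87 pairs, in 17 of the plus-strand gene, in 12 of the minus-strand gene and in 2 of both. Coding bases were covered in 25 of the 26 pairs with an end past the partner's acceptor, against 6 of the 61 pairs with both ends inside. By definition, an end past the acceptor takes in the start of the partner's last exon. The contrast is therefore a description. The remaining 56 overlaps held no annotated coding bases.

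Within a library the overlap was measured only where both families were listed. That was the case for 44, 60 and 47 pairs in the naive, undivided and 2-division libraries, and 38, 53 and 39 of these overlapped. Among all facing families within 5000 nt that were listed in the same library, the overlapping pairs made up 17.2% of 221 in the naive library, 16.3% of 325 in the undivided library and 13.9% of 280 in the 2-division library. The median overlap was 166.5 nt in the naive library (95% interval 80 to 222 nt, n = 38), 192 nt in the undivided library (80 to 240 nt, n = 53) and 134 nt in the 2-division library (58 to 226 nt, n = 39). The intervals of the medians contain each other's medians. Overlaps ranged from 1 to 995 nt, 1 to 729 nt and 1 to 834 nt in the naive, undivided and 2-division libraries.

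**Figure D1:**
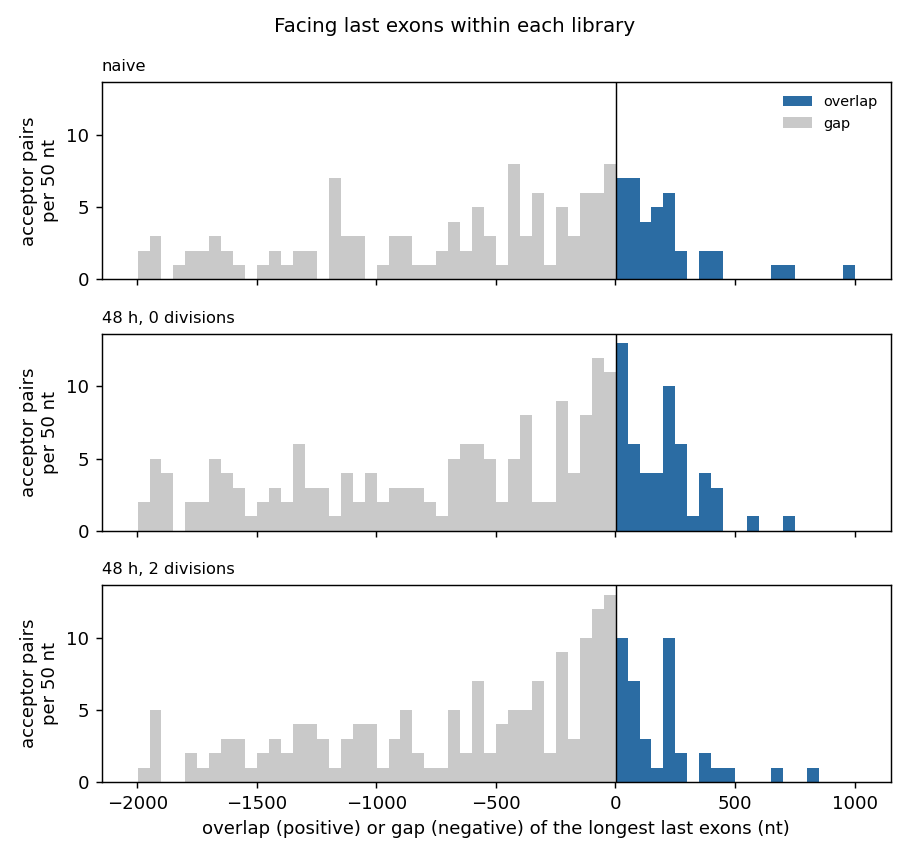
Overlap (positive, blue) or gap (negative, grey) between the longest last exons of facing families in nt, as pairs per bin of 50 nt, for the naive, undivided and 2-division libraries. Pairs with a gap over 2000 nt are left out; in all 3 libraries the pairs continue across 0 without a break, with most overlaps under 500 nt.

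The threshold of 1 nt cut through a continuous range. An overlap of 1 to 50 nt was seen for 7, 13 and 10 pairs in naive, undivided and 2-division cells, and a gap of 0 to 49 nt for 8, 11 and 13. The numbers of pairs just inside and just outside the rule were thus similar. Over a wider range, 35, 51 and 37 pairs overlapped by 1 to 500 nt, and 47, 63 and 70 were separated by 0 to 499 nt.

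Of the 20 pairs with both families listed in all 3 libraries, 15 overlapped in all of them, 1 in 2 and 4 in 1. The length was close to constant: among the 15, the longest and the shortest overlap of the 3 libraries differed by at most 3 nt in 9 pairs and at most 24 nt in 13. Serhl/Rrp7a had the longest of these overlaps on chromosome 15, with 416, 420 and 420 nt in the naive, undivided and 2-division libraries. Rrp7a, of ribosomal RNA processing, ran past the last acceptor of the hydrolase-like gene Serhl and covered 120 of its coding bases.

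Dalrd3/Wdr6 on chromosome 9 joins genes that both act on tRNA modification, and shared 222, 221 and 222 nt in the naive, undivided and 2-division libraries, with 117 coding bases of Dalrd3. Tti2/Mak16 on chromosome 8 joins a chaperone cofactor of PI3K-like kinases and a gene whose yeast counterpart acts in 60S ribosome assembly, and shared 204, 204 and 205 nt in the same order. Surf2/Surf4 on chromosome 2 lies in the surfeit gene cluster, and shared 127 nt in every library. Stat6/Nab2 shared the 27 nt printed above in every library. In none of these pairs did the longest overlap set a library apart.

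The longest ends of 2 of the 15 pairs moved by more than 24 nt. Bccip/Dhx32 on chromosome 7, a BRCA2-interacting protein and a DEAH-box helicase, overlapped by 195, 204 and 99 nt in the naive, undivided and 2-division libraries. Gmppb/Rnf123 on chromosome 9, an enzyme of GDP-mannose synthesis and a ubiquitin ligase, overlapped by 239, 263 and 237 nt. Only the Bccip/Dhx32 overlap after 2 divisions was clearly shorter, since the most distal Dhx32 end was not listed there. The next Dhx32 end, at chr7:133721048, lies at an annotated end. It is followed by an A-rich stretch and has none of the signals searched for.

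**Figure D2:**
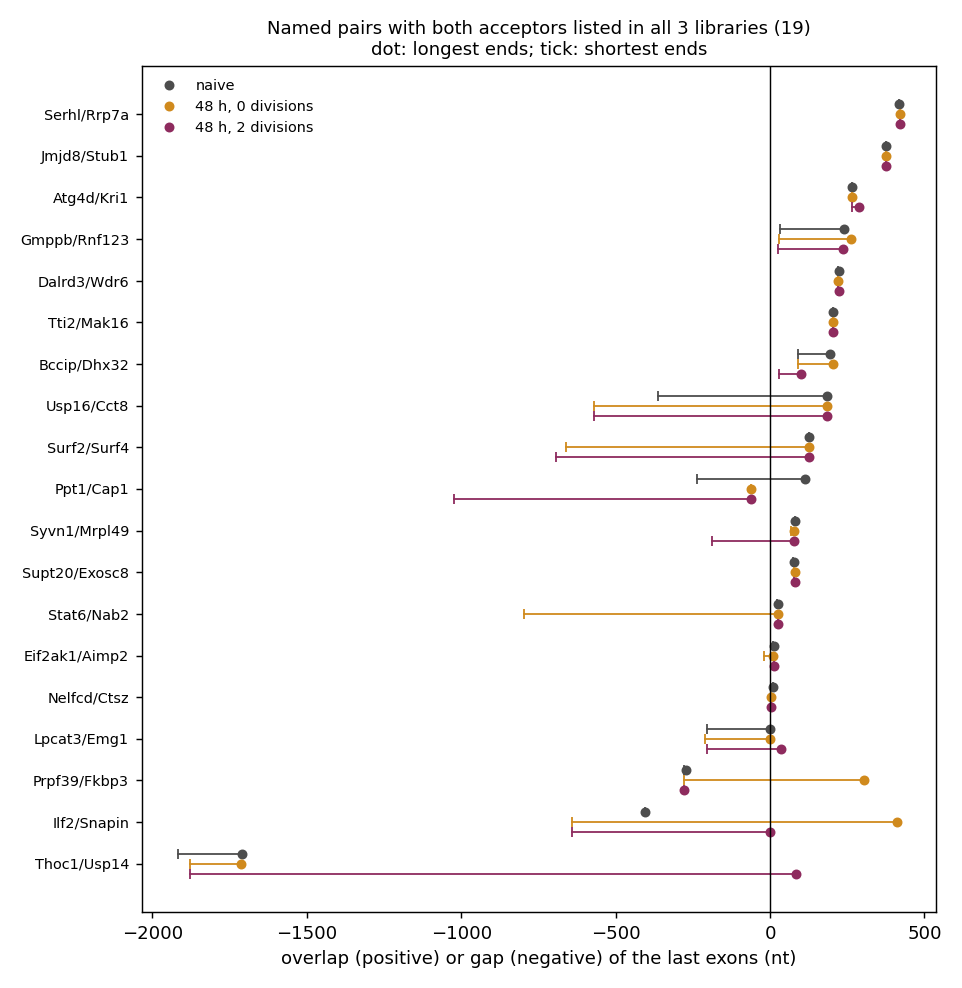
Overlap (positive) or gap (negative) in nt of the last exons of 19 of the 20 pairs with both families listed (those of the naming rule) in the naive (grey), undivided (orange) and 2-division (purple) libraries, with a dot at the longest and a tick at the shortest ends of each library. Dots of the 3 libraries lie on each other in most pairs, while the ticks of Usp16/Cct8, Surf2/Surf4, Stat6/Nab2 and others reach across 0 to gaps.

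Whether an overlap can be removed depends on the shorter ends of the same families. Ends were taken as listed, without merging, so an end a few nt shorter can count as a removal. Adck5/Cpsf1, with a pooled overlap of 3 nt, is such a case. Over all libraries 54 of the 91 overlaps were kept by every listed end, although 5 of them had only 1 isoform on each side. The other 37 were removed by some listed end, 17 by the shorter plus-strand end, 12 by the shorter minus-strand end, 6 by either and 2 only when both were short. In 26 of these 37 the overlapping and the non-overlapping ends were listed in 1 library, and in 14 a library listed both families without any overlap.

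Within a library the shortest listed ends removed 10 of 38 overlaps in the naive library (26.3%, exact 95% interval 13.4 to 43.1%), 11 of 53 in the undivided library (20.8%, 10.8 to 34.1%) and 11 of 39 in the 2-division library (28.2%, 15 to 44.9%). The intervals cover counting error only and overlap widely. More than 1 end, not merged, was listed in 27, 30 and 28 of the overlapping pairs. The share that could be removed is thus bounded by how many ends each library lists. Among pairs with at least 2 isoforms in each family, the shortest ends removed 1 of 6, 6 of 9 and 5 of 9 overlaps in the naive, undivided and 2-division libraries.

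Usp16/Cct8 was removable in all 3 libraries. The distal ends overlapped by 185, 184 and 185 nt in the naive, undivided and 2-division libraries. The shortest ends left gaps of 364, 569 and 569 nt in the same order. In naive cells only the proximal Cct8 end removed the overlap, and in both activated libraries the proximal Usp16 end was listed as well. All 4 ends carry AATAAA, as printed above.

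In Stat6/Nab2 the shorter end was listed only in undivided cells, at chr10:127660122, and left a gap of 797 nt. That end had none of the 11 signals searched for, and the distal Stat6 end is followed in the genome by an A-rich stretch, that is 12 A or more among the next 20 bases. Shorter ends of Surf4, a cargo receptor of the endoplasmic reticulum, left gaps of 659 nt in undivided cells and 693 nt in 2-division cells, and were not listed in naive cells. The short Surf4 ends likewise had no signal. In Syvn1/Mrpl49 on chromosome 19, the ubiquitin ligase of ER-associated degradation and a mitochondrial ribosomal protein, the overlap was 80, 76 and 78 nt, and a shorter Mrpl49 end left a gap of 188 nt after 2 divisions alone. The long Atg4d/Kri1 overlap of 264, 264 and 288 nt was kept by all listed ends, as was Supt20/Exosc8 with 78, 80 and 80 nt.

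Between libraries most pairs did not change state. Of 29 pairs listed in both undivided and naive cells, 20 overlapped in both, 4 only in undivided cells, 4 only in naive cells and 1 in neither. Of 25 listed both after 2 divisions and in naive cells, 18 overlapped in both, 2 only after 2 divisions, 2 only in naive cells and 3 in neither. Of 33 listed both after 2 divisions and in undivided cells, 27 overlapped in both, 1 only after 2 divisions, 2 only in undivided cells and 3 in neither. Where an overlap was kept, the change was within 24 nt in 19 of 20, 16 of 18 and 23 of 27 pairs. The comparisons share libraries and are not independent of each other. Among families with at least 2 isoforms in each library compared, 3 pairs overlapped in undivided and not in naive cells. In 2-division cells, 2 did so against naive and 1 against undivided cells, with 0 in the opposite direction of each comparison. How many pairs passed this filter in both libraries is not given, so these few pairs have no share beside them. Without the filter the counts were 4 against 4, 2 against 2 and 1 against 2, as given above.

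**Figure D3:**
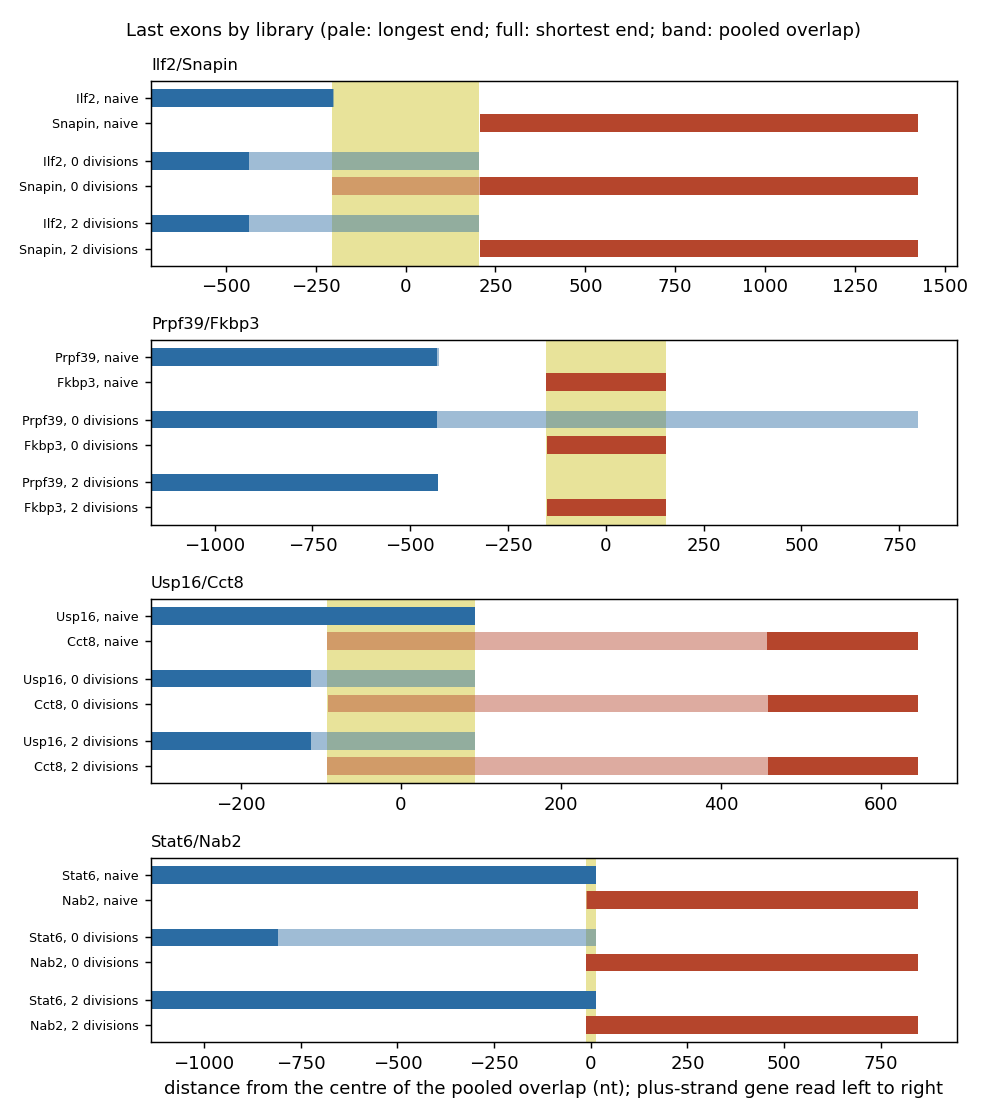
Last exons of Ilf2/Snapin, Prpf39/Fkbp3, Usp16/Cct8 and Stat6/Nab2 drawn to scale for the naive, undivided and 2-division libraries, as distance in nt from the centre of the pooled overlap (band), with the plus-strand gene in blue, the minus-strand gene in red, the longest end pale and the shortest end in full colour. The pale Prpf39 exon of undivided cells runs across the whole Fkbp3 last exon, and Ilf2 and Snapin overlap only in undivided cells.

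Ilf2/Snapin overlapped only in undivided cells. The longest ends were separated by 405 nt in naive cells, overlapped by 411 nt in undivided cells and were separated by 1 nt in 2-division cells. In both activated libraries the distal Ilf2 end was listed, while naive cells listed an end at chr3:90487967. The distal Snapin end was listed in undivided cells alone. Ilf2 had 2, 3 and 5 isoforms in the naive, undivided and 2-division libraries in all, so each state rests on a few isoforms.

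In Prpf39/Fkbp3 the distal Prpf39 end covered the whole Fkbp3 last exon, including 52 coding bases. There was a gap of 273 nt in naive cells, an overlap of 305 nt in undivided cells and a gap of 277 nt in 2-division cells. Ddx39/Adgre5 on chromosome 8, an RNA helicase of mRNA export and the adhesion receptor CD97, overlapped by 44 nt in undivided cells, against a gap of 95 nt in naive cells, and Adgre5 had no isoform of this acceptor after 2 divisions. An acceptor pair of Lpcat3/Emg1 on chromosome 6 and that of Thoc1/Usp14 on chromosome 18 overlapped after 2 divisions and not in naive cells. Lpcat3, of phospholipid remodelling, and Emg1, of ribosome biogenesis, abutted with a gap of 0 nt in naive cells, and overlapped by 1 nt in undivided and 36 nt in 2-division cells. With the other Emg1 acceptor the pair overlapped by 26 nt in 2-division cells, against 1 nt in naive cells. Both Lpcat3 ends that reach Emg1 are followed by an A-rich stretch. Thoc1/Usp14, of mRNA export and of the proteasome, had gaps of 1711 nt in naive and 1713 nt in undivided cells and an overlap of 85 nt in 2-division cells. The overlap rests on a Usp14 end that is also followed by an A-rich stretch. Without A-rich ends, 0 pairs overlapped after 2 divisions and not in naive cells.

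In the other direction, Khnyn/Sdr39u1 on chromosome 14 had the longest overlap in naive cells among the pairs with both families listed, and no overlap, in undivided cells. In undivided cells Khnyn, an antiviral RNase cofactor in human cells, ended at chr14:55896401, and the gap was 884 nt. In naive cells it ended at chr14:55898779, so that the overlap was 729 nt and held 427 coding bases of the dehydrogenase gene Sdr39u1. Pcif1, the methyltransferase of the first adenosine after the mRNA cap, and Zfp335, a zinc finger protein, were separated by 510 nt in undivided cells and overlapped by 407 nt in naive cells. A shorter Pcif1 end, which leaves a gap of 511 nt, was listed in naive cells too. Pyroxd1/Recql on chromosome 6 abutted with a gap of 0 nt after 2 divisions and overlapped by 254 nt in naive cells. Ppt1/Cap1 on chromosome 4, a lysosomal thioesterase and a regulator of actin, was separated by 63 nt in each activated library and overlapped by 114 nt in naive cells, through a Ppt1 end that is followed by an A-rich stretch and has none of the signals searched for. The last pair with this change was a Narfl/Haghl acceptor pair, with a gap of 4 nt in undivided cells and an overlap of 6 nt in naive cells.

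The member families were also set beside all families for the length of the terminal exon, as the mean over the isoforms of a library. Over 100 nt shorter in undivided than in naive cells were 11 of 97 member families (11.3%), against 13.1% of 3961 families. Over 100 nt longer were 4 (4.12%), against 5.71%. After 2 divisions against naive cells, 8 of 90 member families were shorter (8.89%), against 13.7% of 3733, and 3 were longer (3.33%), against 4.8%. After 2 divisions against undivided cells, 11 of 104 were shorter (10.6%), against 8.4% of 4653, and 5 were longer (4.81%), against 6.92%. In each comparison more member families were shorter than longer, and the shares were near those of all families.

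The longest overlaps were mostly listed in a single library. Jmjd8/Stub1 on chromosome 17 reached 995 nt in naive cells, at chr17:25830637-25831631, where Jmjd8 covered 385 coding bases of Stub1, a ubiquitin ligase that works with chaperones. The Stub1 family of that acceptor held 1 isoform and was not listed in activated cells. Its last exon runs across another Stub1 acceptor at chr17:25831010. With that other acceptor, the pair overlapped by 374, 375 and 374 nt in the naive, undivided and 2-division libraries. Ncaph2/Tymp on chromosome 15, a condensin subunit and thymidine phosphorylase, overlapped by 834 nt after 2 divisions, where the shortest ends left a gap of 52 nt. Cog5/Hbp1 on chromosome 12, of Golgi transport and transcriptional repression, overlapped by 729 nt in undivided cells, with an A-rich stretch after the Hbp1 end.

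Other long overlaps were listed in undivided or in 2-division cells, or in both. Exosc9, a subunit of the RNA exosome, and Ccna2, which encodes cyclin A2, overlapped by 296 nt in undivided cells and 665 nt in 2-division cells on chromosome 3. The difference came from an additional, distal Exosc9 end at chr3:36566093, and the Ccna2 end ran past the Exosc9 acceptor. Pkmyt1, an inhibitory kinase of Cdk1, and Paqr4 overlapped by 563 nt in undivided cells, with 187 coding bases of Pkmyt1. This overlap rests on 1 Pkmyt1 isoform with a last exon of 4398 nt. Through another acceptor pair the genes overlapped by 240 nt in undivided cells and 239 nt in 2-division cells. In naive cells alone, Ccpg1/Pigb on chromosome 9 overlapped by 660 nt, with 201 coding bases of the ER-phagy receptor Ccpg1. Alg1/Eef2kmt on chromosome 16 overlapped by 464 nt after 2 divisions and Actl6a/Mrpl47 on chromosome 3 by 450 nt in undivided cells.

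The overlaps that covered the most coding bases included those of Jmjd8/Stub1 and Khnyn/Sdr39u1 given above. Fancl, a ubiquitin ligase subunit of DNA crosslink repair, ran over 339 coding bases of the kinase gene Vrk2, with an overlap of 382 nt in undivided cells and 383 nt in 2-division cells. Fanci/Polg on chromosome 7 overlapped by 398 nt in undivided cells, with 69 coding bases of Fanci and 74 of Polg, the mitochondrial DNA polymerase. A230050P20Rik/Angptl6 overlapped by 264 nt in undivided cells and 266 nt in 2-division cells. Krr1/Glipr1 overlapped by 221 nt in undivided cells, with 152 coding bases of Glipr1. Gmpr2/Tinf2 on chromosome 14 overlapped by 518 nt only between libraries, and was separated by 360 nt in each activated library.

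At the short end, Adck5/Cpsf1 on chromosome 15 overlapped by 1 nt after 2 divisions. Cpsf1 encodes the largest subunit of the complex that recognizes and cleaves at the poly(A) signal. Nelfcd/Ctsz on chromosome 2, of polymerase pausing and lysosomal proteolysis, overlapped by 8, 3 and 3 nt in the naive, undivided and 2-division libraries, and Eif2ak1/Aimp2 on chromosome 5, an eIF2α kinase and a tRNA synthetase scaffold, by 12, 11 and 12 nt. Scyl3/BC055324 overlapped by 6 nt in undivided cells and 7 nt in 2-division cells, and the division genes Kif20a/Cdc23 on chromosome 18 by 20 nt in each. Overlaps seen in only 1 library were 21 nt for Narfl/Haghl and 29 nt for Cenpu/Primpol in undivided cells, 21 nt for Pi4kb/Zfp687 in naive cells and 25 nt for Armc7/Nt5c after 2 divisions. Differences of a few nt between neighbours in this order are smaller than the 24 nt within which ends were merged for the counts of ends. The overlaps themselves were taken without merging.

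The lists drawn up for T cells, cleavage and double-stranded RNA held 5 members. Of 61 T cell genes, 45, 49 and 49 were listed in the naive, undivided and 2-division libraries, and 2 were in pairs, Foxp3 and Stat6. Foxp3/Ccdc22 overlapped by 84 nt in naive cells on chromosome X. It rests on 1 Foxp3 isoform, and Foxp3 had none in either activated library. Of 31 genes in the list for cleavage and termination, 21, 23 and 21 were listed, and Cpsf1 and Pcif1 were in pairs. Pcif1 was on this list, although it is the cap methyltransferase named above. Of 30 genes of double-stranded RNA handling, 15, 17 and 17 were listed, and Ilf2 was in a pair. Among all families, 171 of 8719 were in pairs. The share of all listed genes in pairs was not taken, so the counts for these lists are a description.

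Ends that reached the partner differed from other ends in features that the rule did not use. After merging over 24 nt there were 193 member ends that reach the partner's longest exon and 41 that fall short of it. AATAAA or ATTAAA lay in the last 50 nt of 151 reaching ends (78.2%, exact 95% interval 71.7 to 83.8%) and of 20 short ends (48.8%, 32.9 to 64.9%), against 61.9% of 11367 ends of other families (61 to 62.8%). Taking only the most distal end of each other family, the share was 66.6% of 8451 (65.6 to 67.6%). An annotated end lay within 24 nt for 76.2% of reaching ends (69.5 to 82%) and 31.7% of short ends (18.1 to 48.1%), against 66.7% of the most distal ends of other families (65.7 to 67.7%). An A-rich stretch was found at 11.4% of reaching ends (7.28 to 16.7%) and 7.32% of short ends (1.54 to 19.9%), against 25% of distal ends elsewhere (24.1 to 25.9%). Partners share sequence, and some ends were counted through more than 1 acceptor, such as those of Emg1 and Pusl1. The ends are thus not independent and the intervals are too narrow to serve as a test. The shares are a description.

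**Figure D4:**
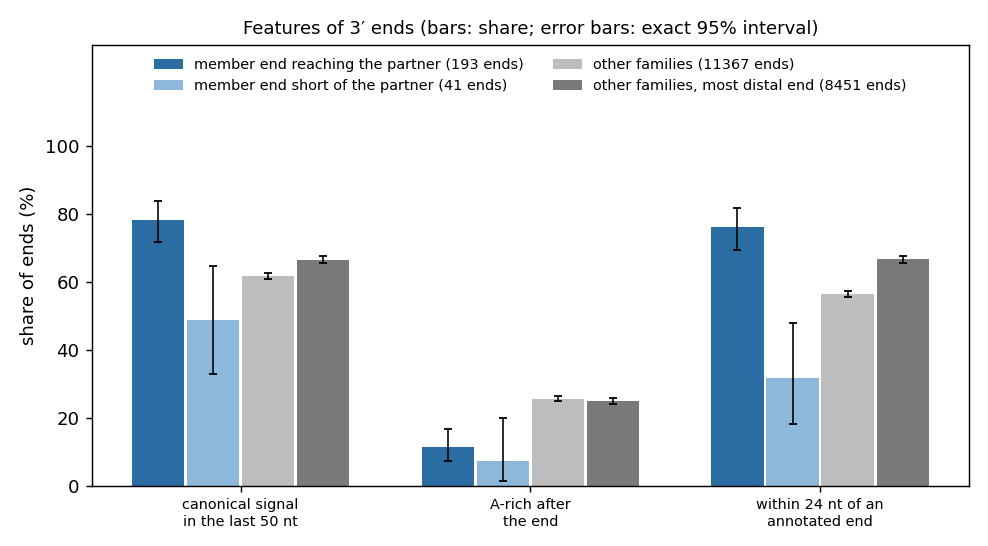
Share of 3′ ends in percent with AATAAA or ATTAAA in the last 50 nt, with an A-rich stretch after the end, and within 24 nt of an annotated end, with exact 95% intervals. Member ends that reach the partner (193, dark blue) and member ends that fall short (41, light blue) stand left of all ends of other families (11367, light grey) and their most distal ends (8451, dark grey).

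Signals on both strands were counted too, but a short overlap brings the partner's own signal into the window, so this share follows in part from the rule and is a description. The last 50 nt held AATAAA or ATTAAA together with TTTATT or TTTAAT, the same letters on the opposite strand, at most 10 nt apart and without sharing a base, at 30 of 193 reaching ends (15.5%, 10.7 to 21.4%) and 1 of 41 short ends (2.44%, 0.0617 to 12.9%), against 5.09% of the most distal ends of other families (4.63 to 5.58%). A match is a description of the letters and no evidence of use. Both longest ends had AATAAA or ATTAAA in 55 of the 88 pairs on the reference chromosomes, exactly 1 end in 31 and neither in 2. Both signals lay inside the overlap in 31 pairs, 1 in 19 and none in 5.

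In the 31 pairs with both signals inside, the facing signals were separated by a median of 93 bases, with a range of 1 to 504. A signal lies shortly before its end, so the spacing and order of facing signals follow largely from the overlap length. The pairs were chosen by that overlap, and these values are a description. They lay at most 50 bases apart in 10. In 3 pairs the plus-strand signal came first on the plus strand, with 1 base between in Stat6/Nab2 and 2 bases in Ddx39/Adgre5 and Rps25/Ccdc84, and these were the closest. In the others the minus-strand signal came first, from 4 bases in Mroh1/Bop1 over 35 in Foxp3/Ccdc22 and 140 in Usp16/Cct8 to 375 in Ilf2/Snapin and 504 in Bud31/Ptcd1. The shortest overlap that held both signals was the 27 nt of Stat6/Nab2.

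Member families were also compared with other families for the number of ends. More than 1 merged end was listed in 54 of 171 member families (31.6%, 24.7 to 39.1%), against 2021 of 8548 other families (23.6%, 22.7 to 24.6%). The longest terminal exon had a median of 720 nt in member families and 895.5 nt in other families. Member families also held more isoforms, 4.04 per family against 3.55, so more ends could be found in them, and the part of this in the share was not tested. A family with more listed ends also had more chances to reach a partner and become a member. The contrast thus follows in part from the rule and is a description.

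The pairs that the naming rule did not take, 48 in number, overlapped by 11 to 558 nt with a median of 164 nt. Of these, 33 were kept by all listed ends, 15 could be removed by a listed end, and 10 overlapped only between libraries. Over all 91 pairs, 45 overlapped in 1 library, 20 in 2, 15 in 3 and 11 only when libraries were pooled, among them Pkd1/Tsc2 with 18 nt.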

How the data were processed

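By the study's methods, the authors ran ccs for consensus reads, lima for primer removal, isoseq3 for poly(A) selection, clustering and collapse into isoforms, pbmm2 for mapping and SQANTI3 for annotation. Minimap2, Subread, mm10 and GRCm38 are named in the submitters' processing notes; the settings of the collapse step are not given in the sources used here. The deposited values are exon positions on GRCm38, with no other unit and no read numbers.

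Last exons were taken from the multi-exon isoforms of 3 libraries, and genes and coding bases from GENCODE M21, an earlier release than the methods name. An overlap is counted in nt between the longest ends of 2 families, in a library or pooled. Ends within 24 nt were merged only for the counts of distinct ends and their features. Overlaps, removals and changes between libraries used the ends as listed. Signals were searched for in the last 50 nt on the strand of the gene: AATAAA or ATTAAA first, then AGTAAA or TATAAA or CATAAA or GATAAA or AATATA or AATACA or AATAGA or AAGAAA or ACTAAA. Sequences are from the GRCm38 assembly. For shares, Clopper-Pearson (exact) 95% intervals are given and reflect counting error alone. The pair finder was tested on simulated data. Pairs were named by rule: the 10 longest and 10 shortest within a library, the 10 with the longest overlap kept in all 3 libraries, up to 10 overlapping in naive and not activated cells and up to 10 the other way round, up to 10 over coding bases, and those with a gene of the lists. The members and lists were chosen with earlier results of these data known. No test was made, as each condition has 1 library. Python 3.11.15 was used with numpy 2.4.6, scipy 1.17.1 and, for plots, matplotlib 3.10.9. A few genes are not reported here.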

Additional observations from a re-analysis of the deposited data

Results flagged for a closer look

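Single-exon transcripts were left out of all counts above. They added 47 pairs of overlapping tail-to-tail last exons to the 91 of multi-exon isoforms, a signal in data that the comparisons did not use. The strand of a single-exon transcript cannot be checked against splice sites.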

How the results depend on the processing

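No paired analysis was possible because each condition has 1 library, and for the same reason no replicate could be left out. Of 109 alternatives, 83 left the value within 1.5 times of that reported, or within its interval, and 26 did not; the cause was not tested unless the setting itself shows it. Adding single-exon transcripts gave 138 pooled pairs. Only pairs listed in all 3 libraries left 16, 18 and 17 overlaps in the naive, undivided and 2-division libraries, since fewer pairs enter. With at least 2 isoforms per family, the shortest ends removed 66.7% of 9 overlaps in undivided cells and 55.6% of 9 after 2 divisions. With this setting, 0 pairs overlapped in naive and not activated cells, in either comparison, or in undivided and not 2-division cells. The other way, 3, 2 and 1 did so (undivided and 2-division against naive cells, 2-division against undivided cells). How many pairs entered these comparisons is not given. Strictly tail-to-tail pairs, with both ends inside the partner's exon for at least 1 pair of overlapping isoforms, left 2 that overlapped in naive and not undivided cells, and 1 in undivided cells and not after 2 divisions. An overlap of at least 50 nt left 2 in undivided and not naive cells, and 1 after 2 divisions and not in naive cells. Without A-rich ends, 1 pair overlapped in naive cells and not after 2 divisions, 0 after 2 divisions and not in naive cells, and 0 after 2 divisions and not in undivided cells. Member families over 100 nt shorter in undivided than naive cells were 7 without A-rich ends, and those longer after 2 divisions than in undivided cells were 2. At 50 nt, 9 were longer in undivided than naive cells, and 16 were shorter and 5 longer after 2 divisions than in naive cells. At 200 nt, 2 were longer in undivided than naive cells and 5 shorter after 2 divisions than in undivided cells. By the longest exon, 7 were longer in undivided and 5 after 2 divisions than in naive cells, and 6 shorter after 2 divisions than in undivided cells. The lists hold no read numbers, so a missing end is an end not listed, and depth limits every absence.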
